A study of Mus musculus with 4 samples.

Results

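Connexins are the membrane proteins of gap junctions. A ring of connexin subunits forms a hemichannel, and hemichannels of neighbouring cells dock into channels through which ions and small metabolites pass from cell to cell. In the vessel wall these channels couple endothelial cells along the vessel and, at contacts between endothelium and mural cells, couple both layers, which is a route for conducted changes of vessel tone. Pannexins form channels of a related topology that open to the outside of the cell and are known for the release of ATP.

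The genes described here were *Gja4* (Cx37), *Gja5* (Cx40), *Gja1* (Cx43), *Gjc1* (Cx45) and *Panx1*, 5 of the 46517 genes counted, and they were chosen by name as the connexins and the pannexin commonly studied in endothelium. They were measured in single CD31+/CD45-/Lyve1- cells sorted from the ear dermis of wild-type female C57Bl/6 mice, adults of 12 to 26 weeks, with no allele or treatment that differed between samples. The study's methods name the substrain C57BL/6 J and a younger range of ages, and the labels' values are used here. Blood vascular endothelial cells (BECs) were processed by Smart-seq2, a plate-based method that gives reads along the whole transcript, in 2 replicates of 2 plates (A and B) with 384 wells each. The replicates are described as pools of cells from 6 mice, and whether each replicate was its own pool was not given, so the p-values below measure the spread between these samples, which may be technical.

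Of 1536 wells, 701 passed the limits on depth and on genes of other cell types, and 306 of these fell into clusters that carried the markers of a vessel class. These were 51 artery-like wells (25 and 26 in replicates 1 and 2), 140 capillary-like wells (121 and 19) and 115 vein-like wells (72 and 43). The classes were named from marker genes, and every connexin and pannexin gene was kept out of the clustering. A further 432 wells (398 and 34) held at least 100 CPM (reads of a gene scaled to the same total in every well) of the endothelial gene *Pecam1* together with at least 100 CPM of the pericyte genes *Pdgfrb* or *Kcnj8* and are called mural-mixed. Another 46 wells (8 and 38) held at least 300 CPM of *Pdgfrb* or *Kcnj8* and less than 100 CPM of *Pecam1* and are called mural-marker wells. Whether a mural-mixed well held one cell, a pair of attached cells or free RNA of another cell was not tested.

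Over all wells replicate 2 was shallower than replicate 1, with a median of 40324 to 42540 reads a well per plate against 142087 to 182926. In the classes the medians in replicates 1 and 2 were 120914 and 181794 reads in artery-like, 136582 and 88519 in capillary-like and 225054 and 254512 in vein-like wells. Replicate 2 was thus deeper in artery-like and vein-like wells. Its median number of genes a well was lower in each class, at 4341 and 2860, 4287 and 2079, and 5490 and 3692 in the same order. The 34 mural-mixed wells of replicate 2 had a median of 10247 reads, against 183604 in replicate 1. In the classes, whose wells had been selected on endothelial genes, *Pecam1* averaged 1536 to 3516 CPM. Other sorted wells went against the label, since *Pecam1* averaged 72.0 and 26.3 CPM in mural-marker wells and 185 wells exceeded the limit on *Lyve1* or *Prox1*. The mural marker list of 14 genes summed to 557 to 1377 CPM in artery-like, 736 to 1848 CPM in capillary-like and 416 to 1109 CPM in vein-like wells, to 4925 to 10836 CPM in mural-mixed wells and to 18826 to 24380 CPM in mural-marker wells, with *Cnn1* at 0 in each of the 3 classes. In the 3 classes *Pdgfrb* averaged at most 22.7 CPM and *Kcnj8* at most 39.1 CPM.

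In the mm10 annotation (GENCODE vM21) *Gja5* (ENSMUSG00000057123) lies on chromosome 3 at 96904693 to 97077416 on the plus strand, *Gja4* (ENSMUSG00000050234) on chromosome 4 at 127311421 to 127314039 on the minus strand and *Panx1* (ENSMUSG00000031934) on chromosome 9 at 15002128 to 15045478 on the minus strand. *Gja1* (ENSMUSG00000050953) lies on chromosome 10 at 56377330 to 56402513 on the plus strand and *Gjc1* (ENSMUSG00000034520) on chromosome 11 at 102799579 to 102819700 on the minus strand. The promoters of *Gja4* and *Gja5*, the connexin genes with their highest mean level among the 3 classes in artery-like wells of both replicates, are shown because the results turn on these genes. They are the 250 bases before the RefSeq start in GRCm38.p6, on the strand of the gene, with the ETS core GGAA of either strand in capitals; ETS proteins are transcription factors with broad roles in endothelium.

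Gja4, chr4:127314040-127314289, minus strand: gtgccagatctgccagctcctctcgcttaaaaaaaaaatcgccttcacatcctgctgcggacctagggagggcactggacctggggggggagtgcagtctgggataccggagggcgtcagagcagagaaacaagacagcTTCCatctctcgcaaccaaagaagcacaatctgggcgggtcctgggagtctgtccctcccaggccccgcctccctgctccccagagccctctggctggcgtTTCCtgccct

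Gja5, chr3:97032152-97032401, plus strand: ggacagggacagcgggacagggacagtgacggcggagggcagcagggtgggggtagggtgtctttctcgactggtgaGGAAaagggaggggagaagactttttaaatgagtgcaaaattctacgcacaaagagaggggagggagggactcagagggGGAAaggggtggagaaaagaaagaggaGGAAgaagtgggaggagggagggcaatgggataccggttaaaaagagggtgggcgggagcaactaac

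The core had 2 matches in the *Gja4* window and 3 in the *Gja5* window, and 93.45% of 32851 RefSeq promoters of this length hold at least 1, so that its presence does not set these genes apart. The letters AACAAT (a SOX motif), GTGGGAA (an RBPJ motif, which contains the ETS core) and TATAAA, searched on both strands, matched in neither window, and 9.42%, 5.42% and 12.37% of the promoters hold them. The *Gja4* window has a GC content of 61.2% and the *Gja5* window one of 56.4%. Of the 5 genes 4 had an entry, and *Gjc1* had none.

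*Gja4* was highest in artery-like wells. It averaged 530 CPM in replicate 1 and 656 CPM in replicate 2, that is 593 ± 89.0 CPM (SD, n = 2). In capillary-like wells the means were 73.6 and 16.9 CPM, and in vein-like wells 18.5 and 26.1 CPM. The lowest artery-like replicate thus lay above the highest value of the other classes, and artery-like wells held 7.20 and 38.9 times the level of capillary-like wells and 28.6 and 25.2 times that of vein-like wells. The capillary-like mean of replicate 2 came from 6 reads, of which 1 read in 1 well made up 81.4%, and with scran's factors the artery-like and capillary-like means of that replicate were 602 and 45.1 CPM. All 4 plates showed this order, with 481 to 674 CPM in artery-like wells against 17, 121, 34.4 and 1.12 CPM in capillary-like and at most 33.9 CPM in vein-like wells, so that the size of the difference from capillary-like wells varied widely between plates. The level depended on how wells were assigned, being 240 and 227 CPM in artery-like wells with the limit on excluded genes at 300 CPM and 247 and 204 CPM with classes set by marker scores, where it stayed above the other classes. With the limit at 10 CPM it was 349 CPM (2 wells) and 82.0 CPM (53 wells) in artery-like wells, and capillary-like wells of replicate 2 stood higher, at 498 CPM (35 wells).

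The level of *Gja4* was not shared evenly among artery-like wells. In replicate 1, 12 of 25 wells held at least 100 CPM, with a median of 986 CPM among them, while 10 wells held a read at a lower level and 3 held none. In replicate 2, 10 of 26 wells held at least 100 CPM, with a median of 1432 CPM, 5 held less and 11 held none. These wells carried 99.3% and 99.7% of the artery-like *Gja4* reads. At this level stood 9 of 121 and 1 of 19 capillary-like wells and 4 of 72 and 2 of 43 vein-like wells, which is 7.44% and 5.26% against 5.56% and 4.65%. The capillary-like well of replicate 2 held a single read, at 261 CPM, so that in a shallow well 1 read can reach this level.

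The share of wells with any *Gja4* read separated the classes less than the level did, and it was lower in replicate 2 in each class. It was 88.0% and 57.7% in artery-like wells (exact 95% intervals 68.8 to 97.5% and 36.9 to 76.6%), but also 81.0% and 26.3% in capillary-like and 77.8% and 27.9% in vein-like wells. In replicate 1 the median level of vein-like wells with a read was 8.47 CPM. After each well had been thinned to 20000 reads, the shares were 56.0% and 42.3% in artery-like wells, 24.8% and 0% in capillary-like wells (0 of 16 wells in replicate 2, with an upper exact limit of 20.6%) and 20.8% and 6.98% in vein-like wells. Intervals take wells as independent draws, so they do not cover the spread between replicates. The reads carry no molecular identifiers.

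**Figure D1:**
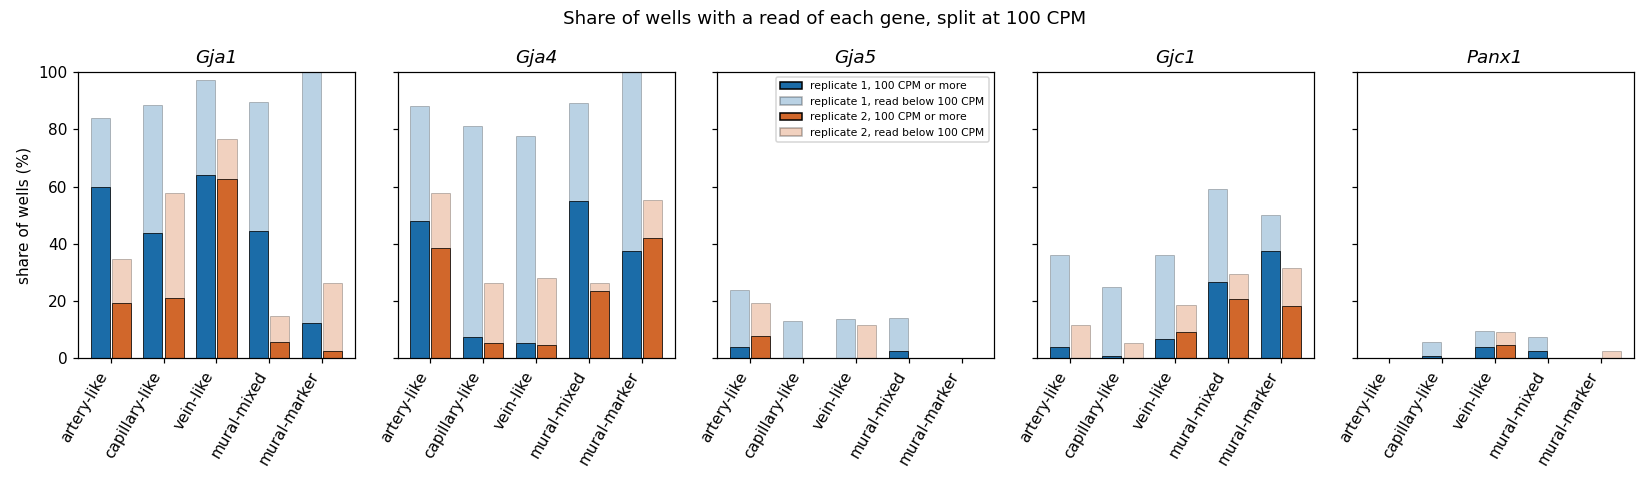
Share of wells (y axis, percent) with a read of each gene for 5 groups of wells (x axis) in replicates 1 (blue) and 2 (orange), where solid bars are wells with 100 CPM or more and pale bars wells with a read at a lower level. In the *Gja4* panel the solid bars reach 48.0% and 38.5% in artery-like wells and at most 7.44% in capillary-like and vein-like wells.

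*Gja4* was also high where mural markers were present. Mural-mixed wells averaged 427 and 99.7 CPM (263 ± 232 CPM, SD, n = 2), between artery-like wells and the other classes in both replicates. Mural-marker wells, in which *Pecam1* averaged 72.0 and 26.3 CPM, held 376 and 514 CPM (445 ± 97.5), or 20.3 and 19.7 times the vein-like level. Of these means, 1 of the 8 mural-marker wells of replicate 1 made up 73.5%, and 1 vein-like well of replicate 2 made up 60.02%. At least 100 CPM was present in 219 of 398 and 8 of 34 mural-mixed wells and in 3 of 8 and 16 of 38 mural-marker wells. The mural-mixed wells of replicate 2 were shallow (median 10247 reads, lowest 2666), so that 1 read could reach this level in some of them. The mural list summed to less in artery-like than in capillary-like wells of the same replicate, but in replicate 2 single mural genes were higher in artery-like wells, with 281 against 34.3 CPM of *Acta2*, 25.1 against 4.19 CPM of *Myh11*, 141 against 125 CPM of *Rgs5* and 6.22 against 3.16 CPM of *Kcnj8*. In replicate 1 these genes were lower in artery-like wells, and the part of mural RNA in the artery-like level of *Gja4* was not tested.

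*Gja5*, whose product Cx40 is known from arterial endothelium and the heart's conduction system, was low and, among the 3 classes, had its highest mean in artery-like wells of both replicates. Its mean in artery-like wells was 17 and 78.8 CPM (47.9 ± 43.7 CPM, SD, n = 2), against 3.24 and 0 CPM in capillary-like wells and 2.29 and 3.18 CPM in vein-like wells. Plates ranged from 4.06 to 144 CPM in artery-like wells, and a single well made up 89.5% of the mean in replicate 1 and 59.7% in replicate 2. At least 100 CPM was found in 1 of 25 and 2 of 26 artery-like wells and in no capillary-like or vein-like well. The order depended on how wells were assigned. With the limit on excluded genes at 300 CPM, capillary-like wells of replicate 1 stood at 15 CPM and artery-like wells at 10.5 CPM, and with it at 10 CPM capillary-like wells of replicate 2 stood at 30.2 CPM and artery-like wells at 26.0 CPM. With classes set by marker scores, vein-like wells of replicate 2 held 38.4 CPM beside 42.0 CPM in artery-like wells.

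Part of the *Gja5* counts could not be told apart from those of a neighbour. One long annotated *Gja5* transcript shares 165 exon bases (chromosome 3, 96905182 to 96905346) with *Gpr89* on the opposite strand, which is 2.87% of the exon bases of *Gja5*, and whether counting used strand was not given. Across the wells of the 3 classes *Gpr89* was the gene most like *Gja5*, with Pearson's r of 0.65 in replicate 1 (218 wells) and 0.45 in replicate 2 (88 wells). In wells without a *Gpr89* read, a restriction chosen after the values were seen, the *Gja5* mean was 17.3 and 85.9 CPM in artery-like wells but 0.752 and 0 CPM in capillary-like and 0.807 and 0 CPM in vein-like wells. Of the *Gja5*-positive wells, a *Gpr89* read was present in 9 of 16 capillary-like and 7 of 10 vein-like wells of replicate 1 and in 5 of 5 vein-like wells of replicate 2. The same held for 2 of 6 and 1 of 5 artery-like wells, and for 0 of the 3 with at least 100 CPM of *Gja5*.

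**Figure D2:**
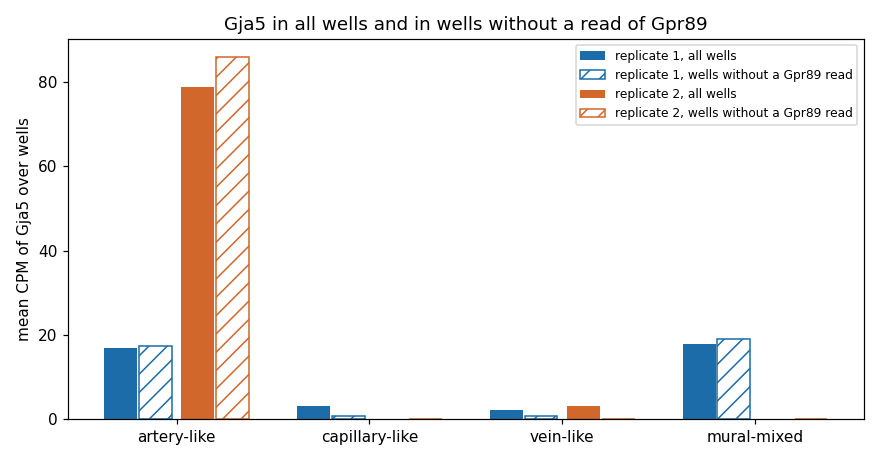
Mean CPM of *Gja5* (y axis) in artery-like, capillary-like, vein-like and mural-mixed wells, for all wells (filled bars) and for wells without a *Gpr89* read (hatched bars) of replicates 1 (blue) and 2 (orange). Leaving out wells with a *Gpr89* read left 17.3 and 85.9 CPM in artery-like wells and less than 1 CPM in capillary-like and vein-like wells.

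In mural-mixed wells *Gja5* averaged 17.9 CPM in replicate 1, with 11 of 398 wells at 100 CPM or more, and 1 of these 11 held a *Gpr89* read. None of the 34 shallow mural-mixed wells of replicate 2 held a *Gja5* read, with an upper exact limit of 10.3% on the share. The level in replicate 1 was 28.1 CPM in the 233 mural-mixed wells with reads of the smooth muscle genes *Acta2* and *Myh11* and 3.53 CPM in the 165 others, with medians of 203660 and 151950 reads. No *Gja5* read was found in the 8 and 38 mural-marker wells, with upper exact limits of 36.9% and 9.25% on the share of wells. The artery-like shares with a read were 24.0% and 19.2%, below the first limit and above the second. *Gja4* was read in 8 of 8 and 21 of 38 of these wells.

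*Gja1*, which encodes the most widely expressed connexin, was detected in every class and was highest in vein-like wells of replicate 2. Its means were 401 and 145 CPM in artery-like, 263 and 97.3 CPM in capillary-like and 342 and 701 CPM in vein-like wells. Averaged over replicates this gave 273 ± 181, 180 ± 117 and 522 ± 254 CPM (SD, n = 2), and the ranges of artery-like and vein-like wells overlapped. Vein-like wells held 4.84 times the artery-like level in replicate 2 but 0.852 times in replicate 1. The vein-like mean of replicate 2 was lower under other assignments, at 394 CPM with the limit on excluded genes at 300 CPM (artery-like 235 CPM), 298 CPM with marker scores (202 CPM) and 336 CPM at the next resolution (152 CPM), where in replicate 1 vein-like wells stood above artery-like wells, at 356 and 292 CPM. The means of artery-like wells were 1.52 and 1.49 times those of capillary-like wells, but in replicate 2 a single well made up 45.8% of the artery-like mean, and fewer artery-like than capillary-like wells held a read, 34.6% against 57.9%.

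The share of wells with at least 100 CPM of *Gja1* was most alike between replicates in vein-like wells, at 63.9% (46 of 72) and 62.8% (27 of 43). In artery-like wells it was found in 15 of 25 and 5 of 26 wells, and in capillary-like wells 43.8% and 21.1%. *Gja1* averaged 251 and 21.4 CPM in mural-mixed wells and 144 and 13.2 CPM in mural-marker wells, where 1 of 8 and 1 of 38 wells held at least 100 CPM. The single well of replicate 1 made up 94.5% of that mean.

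*Gjc1*, whose product Cx45 is known from vascular smooth muscle and developing vessels, was low in the endothelial classes and higher where mural genes were read. It averaged 15.7 and 3.39 CPM in artery-like, 6.74 and 1.0 CPM in capillary-like and 22.2 and 52.8 CPM in vein-like wells. A single well made up 82.3% and 83.8% of the artery-like means, 49.1% and 100% of the capillary-like and 21.2% and 34.0% of the vein-like means. In mural-mixed wells *Gjc1* stood at 85.0 and 76.5 CPM (80.8 ± 6.03 CPM, SD, n = 2), and in mural-marker wells at 317 and 87.2 CPM (202 ± 162), where 1 of the 8 wells of replicate 1 made up 68.7% of the mean. Both mural groups thus lay above every endothelial class in both replicates, by 3.83 and 1.45 times for mural-mixed against vein-like wells. By plate, mural-mixed wells were above vein-like wells on 3 of 4 plates, and on plate B of replicate 2 they stood at 60.1 CPM (18 wells) and vein-like wells at 64.4 CPM (12 wells).

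At least 100 CPM of *Gjc1* was found in 106 of 398 and 7 of 34 mural-mixed wells and in 3 of 8 and 7 of 38 mural-marker wells. In some of the shallow mural-mixed wells of replicate 2 a single read could reach this level. Among the classes at least 100 CPM was found in 5 of 72 and 4 of 43 vein-like wells, 1 of 25 and 0 of 26 artery-like wells and 1 of 121 and 0 of 19 capillary-like wells. All 4 vein-like wells of replicate 2 also held at least 100 CPM of *Gja1*, as did 2 of the 5 in replicate 1.

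*Panx1*, the ATP release channel, was read in few wells. It averaged 9.25 and 13.3 CPM in vein-like wells, from 7 of 72 and 4 of 43 wells, of which 1 well made up 44.9% and 77.3% of the mean, and 6.76 and 0 CPM in capillary-like wells, where 1 well made up 94.0% of the mean of replicate 1. Plates ranged from 0 to 18.5 CPM in vein-like wells. No read was found among 8391560 reads of the 51 artery-like wells. With 0 of 25 and 0 of 26 wells, the upper exact limits on the share were 13.7% and 13.2%, which lie above the vein-like shares of 9.72% and 9.30%. With the limit on excluded genes at 300 CPM, artery-like wells held 0.157 and 7.76 CPM. In mural-mixed wells *Panx1* averaged 6.55 and 0 CPM, and a single read was found in the 46 mural-marker wells.

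Per kilobase of the principal transcript the order of the genes differed between classes. In artery-like wells *Gja4* led with 352 ± 52.8 CPM per kb (SD, n = 2), followed by *Gja1* with 85.8 ± 57.0, *Gja5* with 15.4 ± 14.1 and *Gjc1* with 4.12 ± 3.75, where *Gja1* and *Gja5*, and *Gja5* and *Gjc1*, overlapped within 1 SD. In vein-like wells *Gja1* led with 164 ± 79.9 CPM per kb, above *Gjc1* with 16.2 ± 9.34 and *Gja4* with 13.2 ± 3.17, which overlapped. In capillary-like wells *Gja1* (56.7 ± 36.9) and *Gja4* (26.9 ± 23.8) overlapped, and the means of the other genes were at most 1.67 CPM per kb. In mural-mixed wells *Gja4* (156 ± 137), *Gja1* (42.8 ± 51.0) and *Gjc1* (34.9 ± 2.61) overlapped. Over the union of all annotated exons, which for *Gja1* is 10257 bases, *Gja4* stayed first in artery-like and *Gja1* in vein-like wells (50.9 CPM per kb), and *Gja4* then came before *Gjc1* in vein-like wells (13.2 and 7.49). In capillary-like wells *Gja4* then came before *Gja1* (26.9 and 17.6), and in mural-mixed wells *Gjc1* before *Gja1* (16.1 and 13.3). The transcript lengths were 1685 bases for *Gja4*, 3182 for *Gja1*, 3109 for *Gja5*, 2314 for *Gjc1* and 5732 for *Panx1*.

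The classes were then compared with edgeR's quasi-likelihood test on counts summed per replicate and class, blocked on the replicate, with 3 degrees of freedom left for the spread and Benjamini-Hochberg adjustment across the 16305 genes that passed a filter on low counts. None of the 5 genes passed an adjusted p of 0.05 in any comparison. In artery-like against the other classes 0.0245% of all genes were called, in capillary-like 0.0123%, in vein-like 0.0245%, in artery-like against vein-like wells 0.00613% and in mural-mixed wells against the 3 classes 0.117%, that is 4, 2, 4, 1 and 19 genes. At an unadjusted p under 0.05 the counts of all genes were 935, 752, 1162, 1054 and 981 and those of the 5 members were 3, 1, 3, 2 and 2. With DESeq2's Wald test 2, 0, 0, 2 and 1 of the 5 were called, beside 571, 215, 321, 549 and 544 of all genes. With limma on mean CPM 1 of the 5 was called, *Gja4* in artery-like wells, beside 9, 1, 11, 7 and 7 of all genes. The median dispersion was 1.07, and in data simulated for the artery-like comparison with the estimated dispersions 19.5% of genes changed 8-fold were recovered.

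*Gja4* came nearest to the threshold, with a log2 fold change of 4.87 (SE 0.81) in artery-like against the other classes and an adjusted p of 0.198 in edgeR. Artery-like wells were higher in 2 of 2 replicates. The median over all genes in this comparison was -0.18. Against vein-like wells alone the log2 fold change was 4.79 (SE 1.06, adjusted p = 0.62). With DESeq2's Wald test, with limma on mean CPM, with wells thinned to 20000 reads, without the filter on low counts and on either plate alone the artery-like comparison passed, at adjusted p-values of 0.000725, 0.0469, 9.59e-05, 1.12e-09, 0.00487 (plate A) and 0.00989 (plate B), while it did not in the other 8 tested alternatives, at up to 1. With the limit on *Pdgfrb*, *Kcnj8* and the other excluded genes at 10 CPM, which left 2 artery-like wells in replicate 1, the log2 fold change was 1.22 with an adjusted p of 0.983.

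For *Gja5* the log2 fold change in artery-like wells was 5.33 (SE 2.1, adjusted p = 0.794), and DESeq2's Wald test alone among 14 tested alternatives passed, at 0.0311. Fitted fold changes of *Panx1* depend on the groups without a read and are not given here; DESeq2's Wald test called it lower in artery-like than in vein-like wells, at 0.0356, and edgeR did not, at 0.752. *Gja1* did not pass in any comparison, with log2 fold changes of -0.34 (SE 0.87) in artery-like, -1.01 (SE 0.89) in capillary-like and 1.34 (SE 0.85) in vein-like wells. The median over all genes in the vein-like comparison was 0.32, and it was 0.21 with DESeq2's size factors.

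*Gjc1* had a log2 fold change of 3.62 (SE 1.12, adjusted p = 0.388) in mural-mixed wells against the 3 classes and of 3.27 (SE 1.39, adjusted p = 0.699) in vein-like against the other classes. The latter had the same sign in 16 of 16 alternatives but fell to 0.18 with the limit on excluded genes at 10 CPM, where *Gjc1* in replicate 2 was 35.3 CPM in artery-like and 22.7 CPM in vein-like wells, and to 1.36 with marker scores. *Gja4* had one of 1.89 (SE 0.68, adjusted p = 0.551) in mural-mixed wells. In 2 of 2 replicates the mean CPM of *Gjc1* in mural-mixed wells was above that of each class, and that of *Gja4* was above capillary-like and vein-like wells and below artery-like wells. DESeq2's Wald test passed *Gjc1* at 0.0207, and the fit without the filter on low counts passed *Gja4* at 0.0303.

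**Figure D3:**
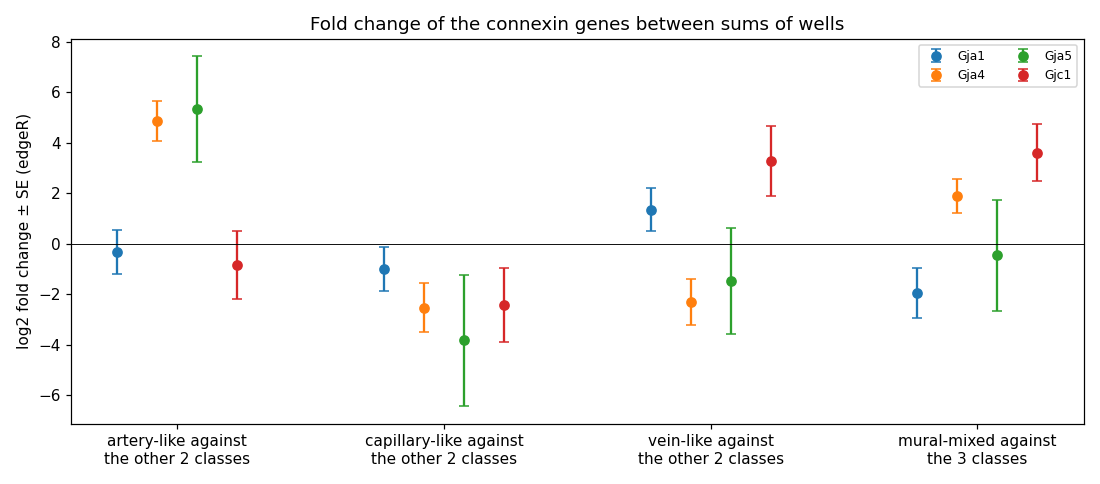
Log2 fold change ± SE from edgeR (y axis) of *Gja1*, *Gja4*, *Gja5* and *Gjc1* in 4 comparisons (x axis), on sums of wells per replicate and class. *Gja4* and *Gja5* stand above 4 in artery-like wells and *Gjc1* at 3.62 in mural-mixed wells, none past an adjusted p of 0.05, and the SE of *Gja5* is the widest.

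Mural-mixed wells were divided by their summed level of *Pdgfrb* and *Kcnj8*, which chose them. In replicate 1 *Gja4* averaged 52.6 CPM in the 37 wells with 100 to 300 CPM, 198 CPM in the 66 wells with 300 to 1000 CPM and 526 CPM in the 295 wells with more. *Gjc1* went from 16 to 65.2 and 98.1 CPM over the same wells. *Gja1* went the other way, from 335 to 253 and 240 CPM, and the endothelial gene *Pecam1* from 2272 to 2205 and 2011 CPM. Median depth was 71754, 157010 and 199990 reads, and its part in these values was not tested.

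In replicate 2 the same ranges held 18, 10 and 6 wells. *Gja4* averaged 12.7, 200 and 194 CPM and *Gjc1* 22.5, 92 and 213 CPM. *Gja1* averaged 13.4, 48.2 and 0.664 CPM, and *Pecam1* rose from 724 to 1105 and 1503 CPM, against its fall in replicate 1. The median depths of these wells were 9508, 5080 and 213710 reads. In mural-mixed wells of replicate 1 with the lowest mural level, *Gja4* thus lay within the range of capillary-like wells.

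**Figure D4:**
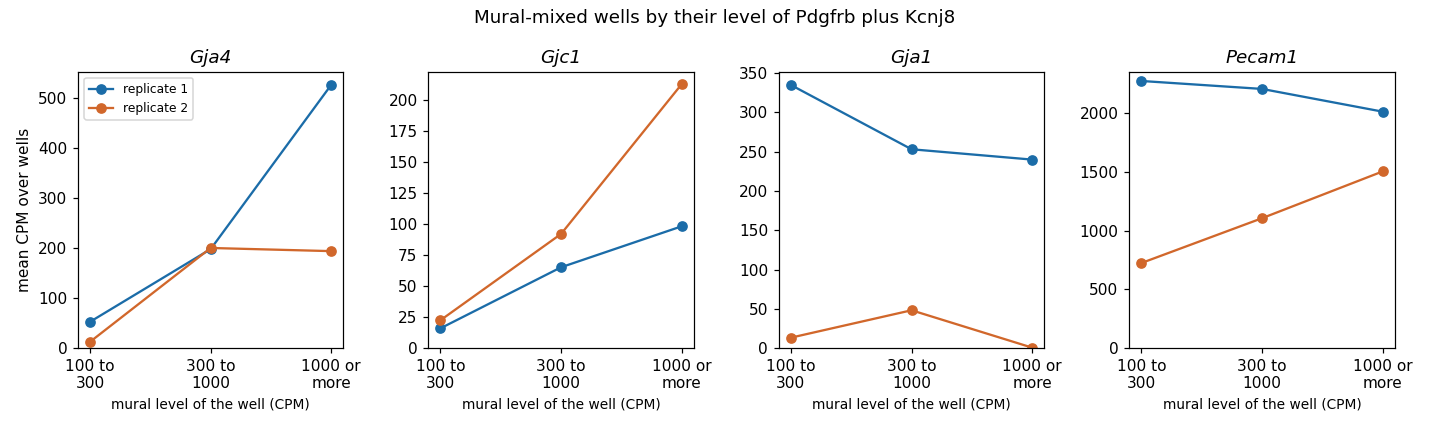
Mean CPM over wells (y axis) of *Gja4*, *Gjc1*, *Gja1* and *Pecam1* in mural-mixed wells grouped by the sum of *Pdgfrb* and *Kcnj8* (x axis, CPM) in replicates 1 (blue, 37, 66 and 295 wells) and 2 (orange, 18, 10 and 6 wells). *Gja4* and *Gjc1* are lowest in the group with the lowest mural level in both replicates.

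Reads of several of the 5 genes were found in the same well more widely in replicate 1 than in replicate 2. In artery-like wells of replicate 1 *Gja1* and *Gja4* were read together in 18 of 25 wells, in replicate 2 in 7 of 26. At 100 CPM or more of each gene, both were present in 6 and 2 artery-like wells, of 12 and 10 with that level of *Gja4* and 15 and 5 with that of *Gja1*. Across artery-like wells Pearson's r of log2(CPM + 1) between these genes was -0.42 (25 wells) and 0.10 (26 wells), so that the replicates differed in sign. *Gja4* and *Gja5* were read together in 5 and 3 artery-like wells, and both stood at 100 CPM or more in 0 and 1.

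In mural-mixed wells of replicate 1 *Gja4* and *Gjc1* were read together in 213 of 398 wells. At 100 CPM or more both were present in 68 wells of the 219 and 106 with that level of each. *Gja4* and *Gja1* shared 105 such wells. In mural-marker wells *Gja4* and *Gjc1* shared 1 of 3 and 3 wells in replicate 1 and 4 of 16 and 7 wells in replicate 2. Most wells of the classes held reads of 2 or 3 of the 5 genes in replicate 1, such as 66 and 29 of 121 capillary-like wells. In replicate 2 most held none or 1, with 7 and 9 of 26 artery-like, 5 and 11 of 19 capillary-like and 5 and 19 of 43 vein-like wells, and no well of the 3 classes held reads of all 5.

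Apart from *Gpr89* with *Gja5*, the correlations of single genes with the connexin genes were weak. The genes most like *Gja4* over the wells of the 3 classes, by the lower of the within-replicate correlations among 8887 genes, were *Slc6a6* (r = 0.27 and 0.31), *Msx1* (0.30 and 0.25) and *Cthrc1* (0.23 and 0.26). *Slc6a6*, a taurine transporter, was itself called higher in artery-like wells (log2 fold change 2.83, adjusted p = 0.0246 in edgeR). For *Gja1* the genes were *Srsf2*, *Srsf7* and *Gpcpd1*, with r of 0.24 to 0.31, for *Gja5* after *Gpr89* they were *Gm19710* and *mt-Co3*, with r of 0.21 to 0.24, and for *Gjc1* they were *Rabif*, *Tbc1d10a* and *Polr3c*, with r of 0.19 to 0.29. The points share depth and base composition, and values of this size in sparse counts are given as a description only.

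Of the 20 connexin genes 7 passed the filter on low counts, and edgeR called none of them in any comparison, while DESeq2's Wald test called members as given above. Their median log2 fold change was -0.34 in artery-like wells, -2.43 in capillary-like wells, 1.34 in vein-like wells and 0.50 in mural-mixed wells, beside -0.18, -0.09, 0.32 and 0.12 over all genes. Outside the 5 members, no connexin gene reached a mean of 5 CPM in a class in both replicates. Of the 9 pannexin and CALHM genes 3 passed the filter and edgeR called none, while DESeq2's Wald test called *Panx1* as given above. *Calhm2*, of a family of large-pore channels that includes ATP release channels, averaged 18.2 and 7.51 CPM in vein-like wells, in replicate 2 from 2 of 43 wells with 1 at 319.6 CPM, and 2.31 and 20.2 CPM in artery-like wells, in replicate 2 from 1 well.

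The genes that act with connexins and ATP were mostly below the threshold in edgeR as well, and the calls that follow are those of edgeR. Of 14 partners and modifiers of connexins all were tested and none was called, with medians of 0.34 in artery-like, -0.037 in capillary-like, -0.0025 in vein-like and -0.28 in mural-mixed wells. Of 15 genes of purinergic signalling, which act downstream of released ATP, 9 were tested and none was called, with medians of -0.38 in artery-like, -0.88 in capillary-like, 1.63 in vein-like and -0.20 in mural-mixed wells. Of 11 genes of conducted hyperpolarization 1 was called, *Kcnj8* in mural-mixed wells, which is a gene that chose these wells.

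The 222 wells without a class name held 26.6 and 31.9 CPM of *Gja4* and 328 and 218 CPM of *Gja1*. A cluster of 173 wells that had passed the limits on other cell types was named mural by its markers. It also carried markers of lymphatic, fibroblast and keratinocyte cells, and it held 211 and 126 CPM of *Gja4* and 38.2 and 53.5 CPM of *Gja5*. Single wells weighed heavily in these means, the highest holding 4028 and 7756 CPM of *Gja4* (45 and 128 wells) and 905 and 4190 CPM of *Gja5*. The mural list of this cluster summed to 2039 and 1258 CPM. Its keratinocyte list summed to 512 and 142 CPM, against at most 40.1 CPM in the 3 classes.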

How the data were processed

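Single cells of mouse ear dermis were measured in 4 plates of 384 wells, 2 per replicate. The authors deposited counts of reads for each gene in each well, without normalisation. Per the labels and the submitters' processing notes, these came from 50-bp Smart-seq2 reads placed on mm10 by TopHat2 2.1.1, with duplicates dropped by SAMtools 0.1.18 and genes counted by Subread 1.4.6-p5. The annotation release and the strand setting are not given in the sources used here. Dropping duplicates limits the counts of abundant genes.

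Wells were clustered if they had at least 600 reads, 500 to 8000 genes, a read of 2 of *Pecam1*, *Cdh5* and *Kdr*, and *Lyve1*, *Prox1*, *Ptprc*, *Pdgfrb* and *Kcnj8* each under 100 CPM. Variable genes (1000, scran 1.30.0) excluded listed, mitochondrial, ribosomal and dissociation genes, and leidenalg 0.10.2 was run on 15 components and 15 neighbours at resolution 0.6. A cluster took the class that had the most markers raised 1.25 times or more in both replicates (at least 3 markers and 10 wells). Values were scaled by library size, because scran's factors fell under 0.1 of it in 26 wells; scran's factors served as an alternative for levels. Doublets were removed by the limit on genes alone. CPM left out spike-ins.

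Reads were summed by replicate and group into 8 sums. Genes reaching 10 counts in 2 of them entered edgeR 4.0.16 (TMM), with DESeq2 1.42.0 and limma 3.58.1 (pseudocount 1) as alternatives. The edgeR test was also run on data simulated with mean levels and dispersions taken from these data. Groups of 1 replicate share its plates and cell pool, so the replicate is a block; deviations from class means correlated at 0.0667 to 0.136 between classes. The members and lists were chosen with earlier results of these data known. Named were the members, other channel genes with at least 5 CPM in a class in both replicates, called genes of the other lists and the 3 genes most like each member. Wells over the *Lyve1* or *Prox1* limit entered no comparison.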

Additional observations from a re-analysis of the deposited data

Results flagged for a closer look

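*Panx1* in capillary-like wells of plate B of replicate 1 averaged 12.3 CPM and stood apart from the other 3 plates, whose values were 0.132, 0 and 0 CPM. The gap was 0.989 of the range, above Dixon's 95% limit for 4 values; 20 sets of 4 plates were examined, and chance gives about 1 such value in 20.

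Wells that were left out for at least 100 CPM of *Lyve1* or *Prox1*, genes of lymphatic endothelium, entered no comparison but held reads of the connexin genes. In these 185 wells, 19 in replicate 1 and 166 in replicate 2, *Gja4* averaged 367.7 and 113.9 CPM and *Gja1* 180.8 and 98.6 CPM. *Gja5* averaged 49.43 and 1.488 CPM, with 1 of the 19 wells of replicate 1 at 887 CPM, and *Gjc1* 2.643 and 27.0 CPM. *Panx1* averaged 6.457 CPM in replicate 1 and had no read in replicate 2. The median depth of these wells was 102880 and 28427 reads.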

How the results depend on the processing

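Depth, few wells per class in replicate 2 and the assignment of wells limit these results. Counts of called genes are given in the order artery-like against the other classes, artery-like against vein-like, capillary-like, vein-like and mural-mixed, where the fit as reported gave 4, 1, 2, 4 and 19. They were 571, 549, 215, 321 and 544 with DESeq2's Wald test, 53, 54, 31, 60 and 241 without the filter on low counts and 33, 29, 12, 48 and 183 with wells thinned to 20000 reads. They were 13, 10, 0, 9 and 102 with the limit on excluded genes at 10 CPM, 0, 0, 2, 2 and 75 with it at 300 CPM, 9, 7, 1, 11 and 7 with limma, 0, 1, 0, 1 and 37 with marker-score classes and 3, 2, 1, 0 and 40 at the next resolution. Plate A alone gave 6, 5, 2, 11 and 16 and plate B alone 13, 18, 12, 14 and 73. The 6 sums of the endothelial classes gave 4, 4, 3 and 7 in the first 4 comparisons, and DESeq2's size factors in edgeR 32 in mural-mixed wells. The cause of these differences was not tested.

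Without the replicate block the counts were 3, 0, 1, 2 and 27, the log2 fold change of *Gja5* in mural-mixed wells turned from -0.46 to 0.36, and no member was called.

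For *Gja4* in artery-like wells the log2 fold change had the same sign in 16 of 16 alternatives, from 1.22 to 6.25. It passed the threshold at 4.94 (DESeq2), 4.35 (limma), 4.84 (no filter on low counts), 5.61 (plate A), 4.27 (plate B) and 4.63 (thinned), and was 4.44 to 6.25 with 1 replicate left out. Against vein-like wells it passed at 4.90 (DESeq2), 4.76 (no filter) and 4.80 (thinned). In mural-mixed wells *Gja4* passed at 1.85 (no filter) and *Gjc1* at 3.69 (DESeq2), with 2.67 to 4.997 for *Gjc1* when 1 replicate was left out; without a replicate there is no test. The artery-like mean of *Gja4* was 215.6, 233.4 and 225.5 CPM with limits of 10 and 300 CPM and marker-score classes. The mural-mixed mean of *Gjc1* was 125.5 CPM (limit 300 CPM), 89.9 CPM (plate A), 72.7 CPM (plate B) and 126.1 CPM (thinned).

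Log2 fold changes that changed sign, none of them called, were these. *Gja1* in artery-like wells was 0.37, 0.54, 0.086 and 0.36 with limits of 10 and 300 CPM, marker-score classes and plate A, and -0.72 to 0.49 with 1 replicate left out; against vein-like wells it was -1.82 to 0.39 and in vein-like wells -0.091 to 2.00 with 1 replicate left out. *Gjc1* in artery-like wells was 0.44 with the limit at 10 CPM and -1.33 to 0.15 with 1 replicate left out, and 0.18 against vein-like wells at 10 CPM. *Gja4* and *Gja5* in capillary-like wells were 1.96 and 1.47 at 10 CPM. *Gja5* in mural-mixed wells was 0.45 at 10 CPM, 0.024 on plate B, 1.13 when thinned and -6.36 to 1.66 with 1 replicate left out, and in vein-like wells -1.78 to 1.23. Fitted values of *Panx1*, a gene read in few wells, were 1.01 and 0.27 at 300 CPM in artery-like wells against the other classes and against vein-like wells. In capillary-like wells they were -5.65, -1.61, -0.32 and -2.30 (10 CPM, 300 CPM, limma, plate A) and -4.50 to 4.85 with 1 replicate left out. In mural-mixed wells they were -1.23, -0.23 and -1.13 (300 CPM, limma, marker scores) and -3.00 to 3.46.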
